A study of Mus musculus with 8 samples.

Results

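Cycling Lgr5-negative crypt cells were examined in 1 single-cell library of mouse small intestine and 1 of large intestine. A barcode, which stands for a droplet that should hold 1 cell, was a member if it had at least 500 detected genes and at most 20% of its UMIs (unique molecular identifiers, counted transcripts) from mitochondrial genes. It also needed at least 10 UMIs of Mki67 and Top2a together, at least 1 UMI of Epcam and 0 UMIs of Lgr5. By this rule 948 barcodes were members, 183 in the small and 765 in the large intestine, of 17488 barcodes in the 2 tissue libraries and of 28486 barcodes and spots in all 8 libraries of the series. The intestine came from C57BL/6 mice and from Lgr5-eGFP-ires-CreERT2 mice on a C57BL/6 background, untreated as far as the labels say. Lgr5-eGFP-ires-CreERT2 is a reporter allele in which the Lgr5 promoter drives a green fluorescent protein and an inducible recombinase. Live cells were sorted with added LGR5+ stem cells and CD31+ PDPN+ LYVE1+ lymphatic endothelial cells, so the shares of cell types were set in part by the sort. The labels used here do not say how many mice were pooled, their age, or which genotype gave which cells. No difference could be tested with 1 library per tissue, so what belongs to a tissue and what belongs to its library cannot be told apart.

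The crypt is the dividing compartment of the gut lining. Lgr5-positive stem cells at its base give rise to transit-amplifying cells, which divide further, lose stem cell transcripts and turn into absorptive or secretory cells. A cell that prepares to copy its DNA makes replication transcripts such as the minichromosome maintenance genes, and a cell that approaches mitosis makes transcripts of cyclin B, spindle and kinetochore genes. Mki67 and Top2a, which chose the members, both peak late in this cycle.

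The label was checked first. Members had a median of 36062 UMIs (lowest 8576, highest 110409) in the small intestine and 38226 (lowest 2004, highest 139668) in the large intestine. Non-cycling Epcam-positive barcodes, defined by 0 UMIs of Mki67 and Top2a, had a median of 16552.5 and 16669 UMIs, so members were the deeper group in both libraries. The median Mki67 plus Top2a count was 41 in the small and 39 in the large intestine. Epcam, an adhesion molecule of epithelial cells, had a median of 82 and 76 UMIs, yet 6 small and 8 large intestinal members had a single Epcam UMI. A list of 14 other epithelial genes, keratins and cadherins among them, took a median of 1.16% and 0.937% of a member's UMIs. Lists for 7 classes of other cells, without red cell genes, took a median of 0.0258% and 0.0373%, with a highest value of 8.58% and 21.7%. In 9 small and 41 large intestinal members the other-cell lists outnumbered the epithelial list, with B and plasma cell genes alone above it in 7 and 39 members and pan-immune genes alone in 8 and 36. Of the T and NK cell genes, Cd3e, Nkg7, Il7r and Gzma were at 0 in all small intestinal members, and Cd3g and Nkg7 were at 0 in all large intestinal members. More other-cell than epithelial UMIs were also found in 248 of 928 non-cycling barcodes of the small and 483 of 2192 of the large intestine. Values below are for the rule as stated, and the value for "epithelial-over-other" barcodes (174 and 724 members) stands beside it where the 2 differ in direction or by more than 1.5 times, for the counts and genes described. The 2 libraries shared 25 barcode sequences, of which 0 small and 1 large intestinal member.

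Members made up 9.78% of the 1871 Epcam-positive barcodes of the small intestine (exact Clopper-Pearson 95% interval 8.47 to 11.2) and 14.5% of the 5294 of the large intestine (13.5 to 15.4). These intervals, like all below, cover counting error only. The limit of 10 cycling UMIs cut through a gradient. Barcodes just inside it, with 10 or 11 UMIs, held Ube2c at 162 CPM (counts per 1e6 UMIs of the group) in the small (14 barcodes) and 200 CPM in the large intestine (49 barcodes). Just outside it, with 8 or 9 UMIs, the levels were 64.3 CPM (18 barcodes) and 70.1 CPM (68 barcodes).

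Before the values, the starts of 5 genes that the results turn on are shown, 4 with motif matches and 1 without, because genes of the mitotic programme are known to share short promoter motifs. CCAAT boxes bind NF-Y, CHR elements bind the complex that holds mitotic genes silent outside the dividing cell, and E2F sites time replication genes. Each line gives 150 bases before the RefSeq transcript start (GRCm38.p6), 5′ to 3′ on the gene's strand, with matches in capitals. Ube2c (chr2:164769779-164769928, plus strand), which tags cyclins for destruction, holds 2 CCAAT boxes and 1 CHR. Cdc20 (chr4:118437344-118437493, minus strand), its partner in the anaphase-promoting complex, also holds 2 and 1. Hmmr (chr11:40733438-40733587, minus strand), a spindle protein, holds 4 CCAAT boxes. Mcm5 (chr8:75109359-75109508, plus strand), a subunit of the replicative helicase, holds 2 CCAAT boxes and 1 E2F match at its far end. Birc5 (chr11:117849087-117849236, plus strand) holds 0 matches to any of the motifs in these bases. Of other genes searched in the same way, Ccnb1 held 2 CCAAT boxes and 1 E2F match, Bub1 2 CCAAT boxes and Rrm2 1, and none of these 3 held a CHR.
Ube2c: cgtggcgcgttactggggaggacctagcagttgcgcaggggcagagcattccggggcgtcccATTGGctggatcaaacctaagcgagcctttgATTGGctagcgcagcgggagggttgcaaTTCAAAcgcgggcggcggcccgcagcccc
Cdc20: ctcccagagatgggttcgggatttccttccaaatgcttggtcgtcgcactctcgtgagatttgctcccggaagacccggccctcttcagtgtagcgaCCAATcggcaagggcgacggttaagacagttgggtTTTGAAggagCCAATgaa
Hmmr: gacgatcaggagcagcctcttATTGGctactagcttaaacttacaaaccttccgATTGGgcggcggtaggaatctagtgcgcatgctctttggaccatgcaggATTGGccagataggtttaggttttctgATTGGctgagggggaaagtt
Mcm5: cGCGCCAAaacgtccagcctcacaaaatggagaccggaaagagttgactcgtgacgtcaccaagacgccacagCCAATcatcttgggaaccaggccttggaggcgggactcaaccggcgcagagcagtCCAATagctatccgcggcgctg
Birc5: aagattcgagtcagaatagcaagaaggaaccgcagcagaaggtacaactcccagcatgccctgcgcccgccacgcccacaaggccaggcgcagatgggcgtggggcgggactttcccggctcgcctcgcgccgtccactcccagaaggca

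The same letters were counted in the 250 bases before every start in the RefSeq table (32851 promoters of 27025 genes). The CCAAT box (CCAAT, other strand ATTGG) was found in 33.8% of all promoters, in 75% of the 56 promoters matched to the G2/M list and in 69.4% of the 36 matched to the S phase list. The CHR (TTTGAA or TTCGAA, other strands TTCAAA and TTCGAA) was found in 17.1%, 39.3% and 19.4%. The E2F match (TTGGCGC or TTCCCGC, other strands GCGCCAA and GCGGGAA) was found in 5.62%, 12.5% and 41.7%. CCAAT and CHR stood together in 33.9% of G2/M promoters, 13.9% of S phase promoters and 6.02% of all. GCGCCAA can overlap a CCAAT box by its last 4 letters. A match is only a match of letters, and no binding was measured here.

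Genes of mitosis and DNA replication other than the 2 of the rule were higher in members as well. Ube2c stood at 527 CPM in small intestinal members (lowest 0, median 11, highest 85 UMIs per barcode) and 7.31 CPM in non-cycling barcodes, a log2 ratio of 6.17 (95% counting interval 5.92 to 6.43). In the large intestine it stood at 587 CPM (0, 15 and 97 UMIs) and 17.4 CPM, a log2 ratio of 5.08 (4.96 to 5.20). Birc5, which encodes survivin of the chromosomal passenger complex, had 338 CPM (0, 12 and 49 UMIs) against 4.53 CPM in the small intestine. Its level in large intestinal members was 387 CPM (0, 14 and 56 UMIs) against 11.2 CPM. Both genes were high in most members and at or near 0 in non-cycling barcodes, although some members had 0 UMIs of either. Because Mki67 and Top2a set this contrast, its ratios describe the groups and support nothing.

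A gene was counted if its higher group held 50 or more UMIs, and called at a log2 ratio of at least 1 or at most -1. Of 10703 genes counted in the small intestine, 1856 were higher in members (17.3%) and 1807 lower (16.9%). The same counts in the large intestine were 1005 higher (7.8%) and 2027 lower (15.7%) of 12891, and among epithelial-over-other barcodes 1065 higher (9.01%) and 1030 lower (8.71%) of 11824. Scaling by the median of gene ratios moved every small intestinal log2 ratio by -0.27 and the split to 1257 higher and 2208 lower. When mitochondrial and ribosomal protein genes were left out of the scaling, ratios shifted by 0.19 and the split went to 2549 and 1619. Ribosomal protein genes took 20.6% of member and 11.3% of non-cycling UMIs in the small intestine, and 21.4% and 17.5% in the large intestine. Of 10474 genes counted in both tissues, 788 were higher in both, 42.6% of the small and 95.5% of the large intestinal set. Another 1061 were lower in both, 65.4% and 82.8% of the 2 sets.

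The G2/M list held 57 genes without Mki67 and Top2a. In the small intestine 53 of 55 counted members of that list were higher, with a median log2 ratio of 5.56, beside 0.21 over all genes counted. In the large intestine 55 of 57 were higher, with a median of 5.05, beside -0.03 over all genes counted. Ccnb1, the mitotic cyclin, had 105 CPM (lowest 0, median 3, highest 21 UMIs) against 0.764 CPM in the small intestine, and 130 CPM (0, 3 and 25 UMIs) against 4.49 CPM in the large intestine. Cdc20 had 145 CPM (0, 3 and 26 UMIs) against 1.64 CPM, and 151 CPM (0, 4 and 30 UMIs) against 4.09 CPM. Among well-counted named genes other than those of the rule, Bub1, a spindle checkpoint kinase, had the highest ratio of the small intestine. It stood at 8.005 (6.72 to 11.64), with its 2 non-cycling UMIs set to the floor of 3. Pttg1, which encodes securin, had the lowest ratios of the list, 0.75 and 0.27. By the naming rule, which takes the most extreme ratios among well-counted genes, the other top genes of the small intestine included Ckap2l, Ttk, Hmmr and Tpx2, all of the mitotic spindle or its checkpoint. Those of the large intestine included Kif18b, Esco2, Knl1 and Nusap1, and the linker histone gene Hist1h1b was named in both.

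Genes of DNA replication were higher by less. All 44 genes of the S phase list were higher in the small intestine with a median log2 ratio of 3.85, and 41 of 44 in the large intestine with a median of 2.76. Mcm5 stood at 63.0 CPM (lowest 0, median 2, highest 12 UMIs) against 2.89 CPM in the small intestine, and 76.6 CPM (0, 2 and 16 UMIs) against 11.2 CPM in the large intestine. Rrm2, a subunit of ribonucleotide reductase, had 62.4 CPM against 0.819 CPM, and 85.5 CPM against 3.49 CPM. Pcna, the sliding clamp of DNA polymerase, had smaller log2 ratios of 2.35 (2.21 to 2.49) and 2.14 (2.05 to 2.22), with 33.6 and 40.6 CPM already in non-cycling barcodes. Ung, which removes uracil from DNA, was the lowest of the large intestinal list at 0.38 and stood at 2.19 in the small intestine, or -0.17 after thinning, when 3 of 183 members held a UMI.

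**Figure D1:**
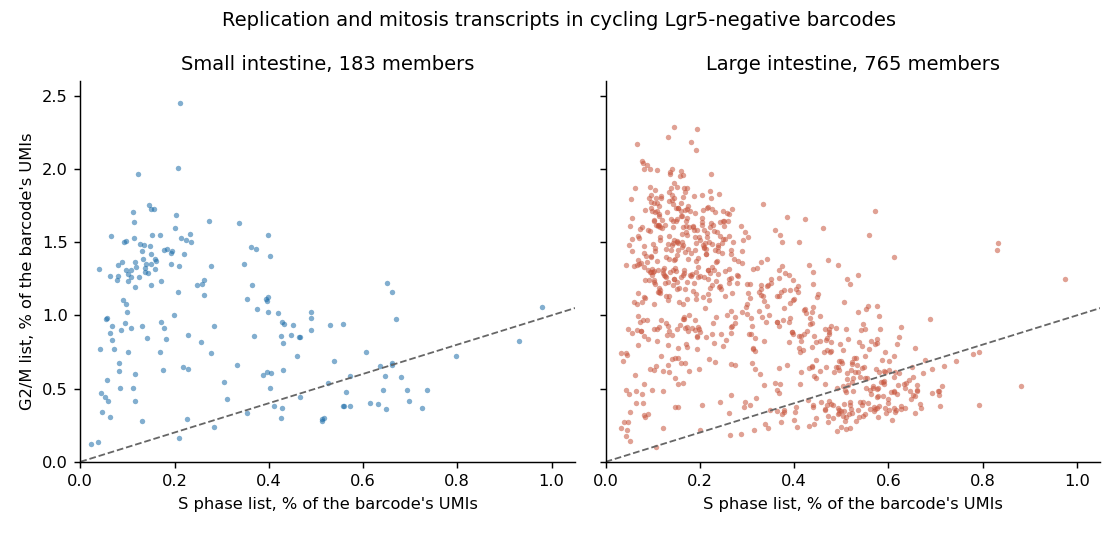
Each point is 1 member, with the share of its UMIs from the S phase list on the x axis and from the G2/M list on the y axis, both in percent; the dashed line marks equal shares. Most points lie above the line, 156 of 183 in the small and 632 of 765 in the large intestine.

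The plot of S phase against G2/M shares shows members at different points of the cycle. The G2/M list took a median of 0.954% of UMIs in small and 1.02% in large intestinal members, and the S phase list 0.211% and 0.253%. G2/M UMIs exceeded S phase UMIs in 156 of 183 members (85.2%, 79.3 to 90.05) and 632 of 765 (82.6%, 79.7 to 85.2). The same was found in 819 of 928 (88.3%) and 1865 of 2192 (85.1%) non-cycling barcodes, so it is not particular to members. The 2 lists differ in size and abundance, and free RNA adds to such counts, so these shares are no measure of time spent in a phase. Across members the 2 shares ran against each other, with Spearman's rho -0.29 (n = 183) and -0.52 (n = 765), or -0.28 and -0.42 after thinning each barcode to 2000 UMIs. In non-cycling barcodes rho was 0.44 (n = 928) and 0.19 (n = 2192). The points within a tissue share 1 library, and the 2 shares of a barcode share its total.

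A split of the epithelial-over-other members by the ratio of the 2 lists, chosen after the values were seen, is given as a description. Ccne1 and Ccnb1 belong to the lists that built its classes, so the split sets their direction. Ccne1, the cyclin of the G1 to S transition, stood at 41.3 CPM in the 23 small intestinal members with more S phase UMIs. It was at 47.7 CPM where G2/M UMIs were 1 to 2 times the S phase UMIs (25 members) and at 5.67 CPM where they were more (126 members). The large intestine gave 58.1, 45.3 and 5.02 CPM (126, 112 and 486 members). Ccnb1 went the other way, from 12.6 through 27.8 to 139 CPM in the small and from 15.02 through 38.1 to 179 CPM in the large intestine. Hist1h1b, a histone gene in neither list, was highest in the middle class, at 1163 CPM beside 343 and 425 CPM in the small intestine, and at 488 CPM beside 232 and 347 CPM in the large intestine. Median depth was similar in the 3 classes (33452 to 37178.5 UMIs in the small and 33644 to 40196 in the large intestine). The rule's own count was not, with medians of 16, 47 and 49.5 Mki67 plus Top2a UMIs in the small intestine, so members with more S phase UMIs lay nearest its limit.

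Most regulators of the cycle were higher in members. Of 29 counted, 21 were higher and 3 lower in the small intestine, and 18 higher and 3 lower in the large intestine. Over all genes counted, 17.3% and 7.8% were higher and 16.9% and 15.7% lower, so lower regulators were no more frequent than lower genes at large. The 3 lower genes were the same in both tissues, all inhibitors of cyclin-dependent kinases: Cdkn1a, Cdkn2b and Cdkn1c. Cdkn1a, which encodes p21, had 64.4 CPM in small intestinal members (lowest 0, median 1, highest 17 UMIs) and 202 CPM in non-cycling barcodes. In large intestinal members it had 25.1 CPM (0, 0 and 44 UMIs) against 146 CPM. The inhibitor Cdkn2c went the other way, with log2 ratios of 2.48 (2.04 to 2.94) and 2.56 (2.31 to 2.81). Among the drivers, the cyclin gene Ccnd1 had 1.94 (1.81 to 2.06) and 1.04 (0.97 to 1.10), and the transcription factor gene Foxm1 had 5.68 (4.77 to 6.76) and 5.07 (4.47 to 5.74). Myc, a growth regulator downstream of Wnt, had 1.82 (1.47 to 2.18) and 0.60 (0.44 to 0.76).

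Most biosynthesis genes were higher as well in the small intestine. Ratios were smaller in the large intestine, where most ribosome assembly genes did not reach a log2 ratio of 1. Of 22 genes of nucleotide synthesis, 21 were higher there with a median log2 ratio of 2.22, and 17 of 22 in the large intestine with a median of 1.30. Of 20 genes of ribosome assembly, 19 were higher in the small and 8 in the large intestine, with medians of 1.97 and 0.94. Over all genes counted, 17.3% were higher in the small and 7.8% in the large intestine. Nucleolin (Ncl) stood at 936 CPM (lowest 0, median 29, highest 160 UMIs) against 204 CPM in the small intestine, and 767 CPM (0, 24 and 155 UMIs) against 278 CPM in the large intestine. The chaperone gene Hsp90aa1 was also higher, at 1.87 (1.82 to 1.93) and 1.68 (1.65 to 1.71), while the immediate early genes Fos and Egr1 had ratios of -0.79 and -0.58 in the small and -2.03 and -2.27 in the large intestine. Non-cycling barcodes were not alike in the 2 libraries. Between them 22 of 39 S phase genes and 8 of 20 ribosome assembly genes were lower in the small intestine, beside 17.4% of all 12722 genes and a median of -0.31, where among members 0 of 44 and 0 of 20 were.

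**Figure D2:**
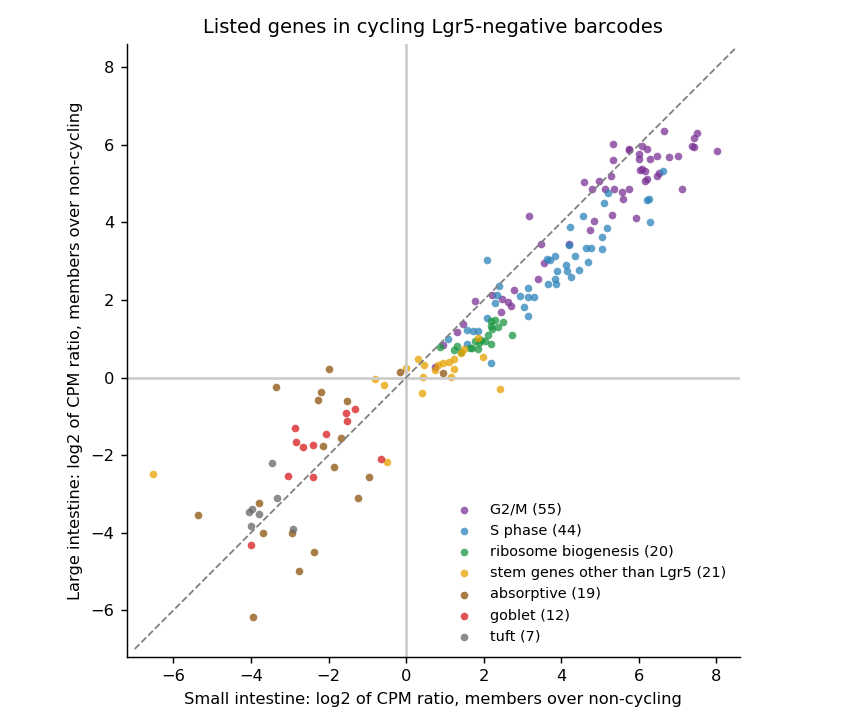
Each point is 1 listed gene counted in both tissues, with its log2 CPM ratio of members over non-cycling barcodes in the small intestine on the x axis and in the large intestine on the y axis; colours give the list and the dashed line equal ratios. G2/M and S phase genes sit at the upper right and tuft, absorptive and goblet genes at the lower left, with most stem genes near the middle.

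Genes of mature cells were lower in members, as the plot of listed genes in both tissues shows. Over all genes counted, 16.9% were lower in the small and 15.7% in the large intestine, or 8.71% among epithelial-over-other barcodes of the latter. Of 22 absorptive genes 19 were lower in the small intestine (median log2 ratio -2.33), and 14 of 21 in the large intestine (-2.30). Fabp1, a fatty acid carrier, stood at 171 CPM in small intestinal members (lowest 0, median 1, highest 556 UMIs) and 2227 CPM in non-cycling barcodes. Goblet genes were lower in 11 of 12 and 10 of 12, with medians of -2.41 and -1.70. All 8 tuft genes counted in the small and all 7 in the large intestine were lower (-3.63 and -3.47), with Dclk1 at 9.41 against 150 CPM and at 2.92 against 41.2 CPM. Enteroendocrine genes were lower in 10 of 11 and 10 of 10 (-4.09 and -6.15). The exception was the glucagon gene Gcg, nearly all of whose small intestinal member UMIs lay in 1 barcode. The lowest ratios by the naming rule, among epithelial-over-other barcodes, were those of Clca4a and Pmp22 in the small intestine and of the hormone granule gene Chgb (-7.09) and the proton pump gene Atp12a (-6.24) in the large intestine. Clca4a is on the stem gene list and on none of the mature cell lists.

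Genes of the stem cell signature were counted without Lgr5, which the rule set to 0. Against non-cycling barcodes, 10 of 24 were higher and 1 lower in the small intestine (median log2 ratio 0.79), and 1 was higher and 2 lower of 23 in the large intestine (0.25). Over all genes counted, 17.3% were higher and 16.9% lower in the small intestine, and 7.8% and 15.7% in the large intestine. Against the cycling barcodes that had Lgr5 UMIs (112 and 425), none was higher, while 20 of 24 were lower in the small intestine (-1.68) and 8 of 23 in the large intestine (-0.77; 6 among epithelial-over-other barcodes, where 1.03% of all genes were lower). In this contrast 4.7% of 8346 genes were higher and 2.84% lower in the small intestine, and 3.48% higher (390) and 1.12% lower of 11202 in the large intestine, where 258 (2.35%) were higher among epithelial-over-other barcodes. After thinning to 2000 UMIs the small intestine had 607 higher and 764 lower, where it had 392 and 237 without thinning, and the large intestine had 501 lower, where it had 126. Olfm4, a secreted stem cell marker of the small intestine, stood at 669 CPM in members (lowest 0, median 4, highest 224 UMIs), 275 CPM in non-cycling and 4202 CPM in Lgr5-positive cycling barcodes. Ascl2, a stem cell transcription factor, had 13.8 CPM (0, 0 and 8 UMIs), 7.20 CPM and 87.3 CPM there, and 22.0 CPM (0, 0 and 22 UMIs), 16.9 CPM and 65.2 CPM in the large intestine. Smoc2, a matrix protein gene, stood at 63.0, 23.8 and 185 CPM in the same order of groups there, and at 46.5, 30.1 and 122 CPM in the large intestine. Members were thus between the other 2 groups for all 3 genes. Igfbp4 depended on the other cells: its ratio against non-cycling barcodes of the large intestine was -2.17 by the rule and 1.09 among epithelial-over-other barcodes.

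Members and Lgr5-positive cycling barcodes were both chosen by at least 10 Mki67 plus Top2a UMIs (medians of 41 and 51 in the small and 39 and 45 in the large intestine), so the cell cycle lists are compared here as a description only. Of 43 S phase genes 1 was higher in small intestinal members (Ccne1, 1.07, 0.49 to 1.69) and of 55 G2/M genes 1 was lower (Psrc1, -1.98). The large intestine had 0 of 44 and 0 of 57. Medians lay between -0.17 and -0.09, and those of the ribosome assembly list were -0.29 and -0.28. Ube2c differed by -0.15 (-0.23 to -0.08) in the small and 0.05 (0.01 to 0.08) in the large intestine. Regulators past a log2 ratio of 1 or -1 included Cdkn1a, at 1.97 (1.59 to 2.36) and 1.28 (1.04 to 1.53), Cdk6, at -1.42 (-1.61 to -1.22) and -1.02 (-1.11 to -0.92), and in the small intestine Myc, at -1.27 (-1.58 to -0.97). Cdkn1a therefore stood lowest in Lgr5-positive cycling barcodes (16.5 and 10.3 CPM), higher in members and highest in non-cycling barcodes.

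The libraries also count features with GFP in their name. One of them, GFP-PLUS, had UMIs in 5 of 183 small intestinal members (2.73%, 0.893 to 6.26) and in 128 of 765 large intestinal members (16.7%, 14.2 to 19.6). In Lgr5-positive cycling barcodes the shares were 19.6% and 69.9%, in non-cycling barcodes 2.59% and 6.98%. None of the 423 and 213 non-epithelial reference barcodes had one (median depth 3083 and 3462 UMIs). Reference barcodes had 0 UMIs of Epcam, Mki67 and Top2a. They also had at least 3 UMIs of the B, T and endothelial cell genes Cd79a, Cd79b, Cd3e, Pecam1 and Cdh5 together. After thinning to 2000 UMIs the shares were 1.09% and 1.31% in members and 4.50% and 10.6% in Lgr5-positive cycling barcodes, with 0 of 390 and 0 of 191 reference barcodes, which allows up to 0.769% and 1.57% (3 counts of the total). The thinned shares of members rest on 2 and 10 barcodes, and in a separate draw for epithelial-over-other members on 0 of 174 and 11 of 724. The labels do not say what the feature's name stands for or which mice entered which library, so GFP levels of the 2 tissues cannot be compared. A second feature, GFP-MINUS, had 0 UMIs in small and 1 UMI in large intestinal members.

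Members with a UMI of either GFP feature held more stem cell transcripts than the rest. Ascl2 was at 58.0 CPM in the 5 and 12.8 CPM in the other 178 small intestinal members, and at 51.9 CPM in the 129 and 15.9 CPM in the other 636 of the large intestine. Smoc2 was at 271 against 58.3 CPM and 86.9 against 38.3 CPM, and Olfm4 in the small intestine at 3481 against 606 CPM. Ube2c was at 612 against 525 CPM and 647 against 575 CPM. The 5 small intestinal barcodes rest on few counts, 9 UMIs in the case of Ascl2.

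**Figure D3:**
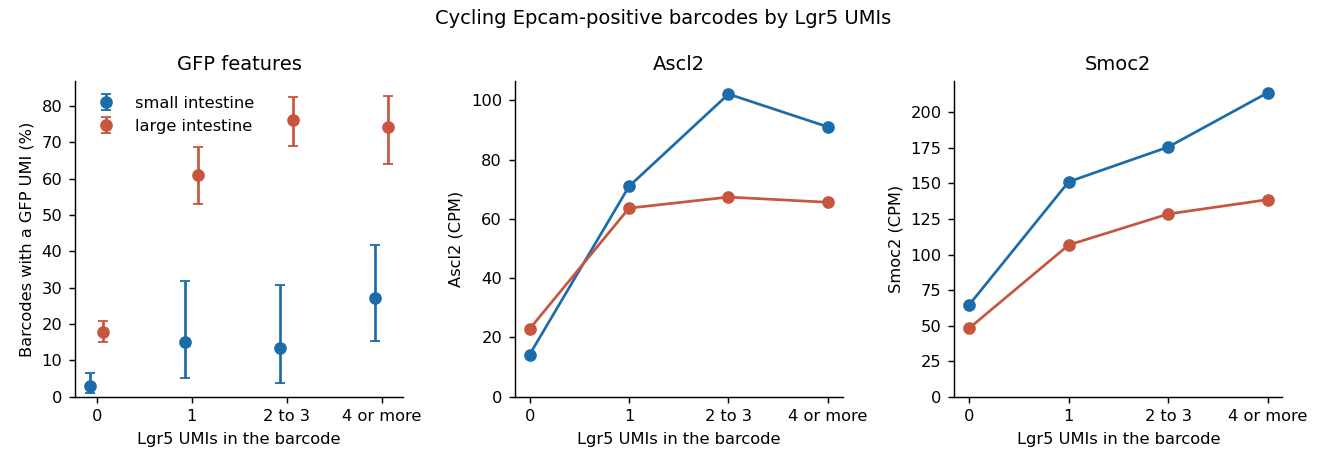
Cycling epithelial-over-other barcodes grouped by Lgr5 UMIs on the x axis (0 are the members), with the share holding a GFP UMI in percent with its exact 95% interval (left) and pooled Ascl2 (middle) and Smoc2 (right) levels in CPM, blue for the small and red for the large intestine. Members have the lowest value in each panel, and Ascl2 is close to its full level from 1 Lgr5 UMI on in the large intestine.

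The plot by Lgr5 UMIs gives the levels in steps that were chosen after the values were seen. In the large intestine Ascl2 stood at 22.9 CPM in members, 63.6 CPM with 1 Lgr5 UMI, 67.3 CPM with 2 to 3 and 65.6 CPM with 4 or more (724, 159, 168 and 93 barcodes). Small intestinal values were 14.2, 71.0, 102 and 91.0 CPM (174, 33, 30 and 48 barcodes). Smoc2 went from 48.3 through 107 and 128 to 139 CPM in the large, and from 64.7 through 151 and 176 to 214 CPM in the small intestine. The GFP share went from 17.8% to 61.0%, 76.2% and 74.2%, and from 2.87% to 15.2%, 13.3% and 27.1%. Median depth ranged from 33087 to 38734 UMIs over the 8 classes, and the part of depth in the steps was not tested.

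Genes of mature cells were compared with Lgr5-positive cycling barcodes next. Of 12 goblet genes, 8 were higher in the small intestine (median log2 ratio 1.44) and 10 in the large intestine (1.56), and of the absorptive genes 8 of 19 were higher and 1 lower, and 3 of 16 higher and 2 lower. The pooled goblet difference rested on few barcodes in the small intestine, where the goblet list took 0.567% of member and 0.243% of Lgr5-positive UMIs but a median of 0.0484% and 0.0550% per barcode. In the large intestine the pooled shares were 1.70% and 0.575% and the medians 0.196% and 0.154%. The naming rule gave, in the small intestine, Myl7 (3.88), Chp2 (3.54), Cdkn2b (3.54) and the sialyltransferase gene St3gal4 (3.15) among the highest, with Gkn3 (-3.12), Tubb2b (-3.11), Sp5 (-2.94), Ascl2 (-2.66) and Olfm4 (-2.65) among the lowest. In the large intestine the named genes included B cell genes (Pou2af1, Tnfrsf13b), which left the list when barcodes with more other-cell UMIs were left out. Among the highest were then the sugar-phosphate transporter gene Slc37a2 (3.03), the carbonic anhydrase gene Car1 (2.79), Gsdmc4 (2.34) and Itln1 (2.25), and the 10 lowest by the rule included Jaml (-1.90), Agr3 (-1.88), Clca4a (-1.66), Ascl2 (-1.57) and Rgcc (-1.53). Of 7 B and plasma cell genes, 5 and 6 were higher in members by the rule, and 0 of 2 and 0 of 3 without those barcodes, beside 4.2% and 2.35% of all genes.

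Members also varied among themselves. Among epithelial-over-other members thinned to 2000 UMIs, the genes with the largest variance over mean were Defa24, Defa30, AY761184, Spink4 and Zg16 in the small intestine and Mptx1, Reg3b, Spink4, Clca1 and Agr2 in the large intestine, among them Paneth cell defensins and goblet cell products. Genes of other kinds, such as Malat1, Apoa1 and Car1, were also among the top 20 of a tissue. Goblet genes together took over 5% of UMIs in 8 of 174 small (4.60%) and 100 of 724 large intestinal members (13.8%), and under 1% in 159 and 492. Atoh1, the switch to secretory fate, stood at 1.77 CPM, 154 CPM and 243 CPM in members with under 1%, 1% to 5% and over 5% in the small intestine, and at 13.4, 243 and 285 CPM in the large intestine. Muc2, the mucus protein gene and part of the goblet list, had the values the classes were built on (45.8, 1040 and 7721 CPM, and 165, 2837 and 9957 CPM). Ascl2 was at 31.0 CPM in the lowest and 4.93 CPM in the highest class of the large intestine.

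**Figure D4:**
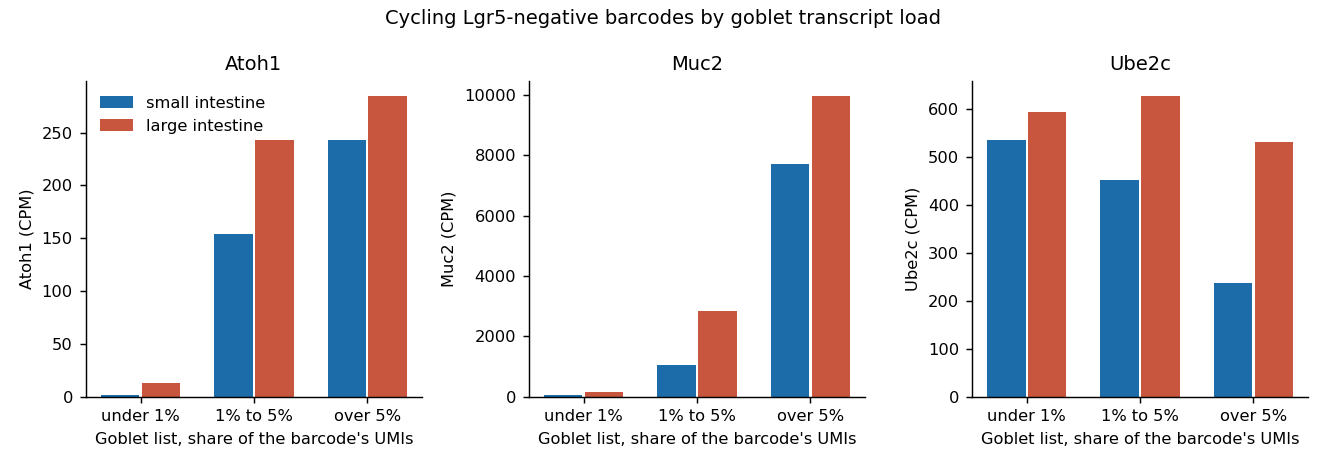
Pooled CPM of Atoh1, Muc2 and Ube2c (panels from left to right, bars without error) in epithelial-over-other members grouped on the x axis by the share of their UMIs from goblet genes, blue for the small and red for the large intestine. Ube2c in the highest class is 238 CPM (8 members) in the small and 533 CPM (100 members) in the large intestine.

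All classes in the plot by goblet load hold cycling transcripts by the rule, so their levels are a description. In the large intestine Ube2c was at 595, 628 and 533 CPM in the 3 classes, and Birc5 at 373, 425 and 421 CPM. The 8 small intestinal members of the highest class had 238 CPM of Ube2c, where the class under 1% had 537 CPM, a median of 19.5 Mki67 plus Top2a UMIs against 45, and a median of 22950 UMIs against 36822. A low goblet signal was everywhere: Muc2 had a UMI in 14.2% of thinned small intestinal members and in 15.1% of thinned reference barcodes, so the share is at background there. Its thinned share in the large intestine was 48.0% in members and 37.2% in reference barcodes. Doublets were kept, and 4 of 183 small and 68 of 765 large intestinal members were among the barcodes with the highest Scrublet doublet scores, which were 61 of 2756 (2.20%) and 306 of 6188 (4.95%) of all kept barcodes; the part of doublets in the goblet classes was not tested.

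Paneth cell transcripts were in every small intestinal member and every reference barcode. Defa24, a defensin gene, had a lowest, median and highest count of 9, 44 and 28540 UMIs in members and 1, 11 and 638 UMIs in the shallower reference barcodes, so its presence marks no cell. The Paneth list took over 5% of UMIs in 5 epithelial-over-other members, with 5.33% as the lowest and 56.1% as the highest share, and under 1% in 164. Those 5 had a median of 18 Mki67 plus Top2a UMIs (lowest 10, highest 37), beside 44.5 in the 164. Their Ube2c level was 205 CPM beside 535 CPM, and Olfm4 55.1 CPM beside 713 CPM.

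Members of both tissues passed the same limit of Mki67 plus Top2a UMIs, so their levels of cell cycle genes are set in part by the rule and are given as a description. Of 10732 genes, 554 were higher (5.16%) and 1329 lower (12.4%) in small intestinal members at a log2 ratio of 1, and after thinning each barcode to 2000 UMIs 949 were higher and 718 lower. Without thinning, of 44 S phase genes 0 passed (median -0.12), of 57 G2/M genes 1 was lower, the mitotic regulator Pimreg (-1.49, -2.16 to -0.89), of 22 nucleotide genes 1 was lower (Srm) and of 20 ribosome assembly genes 0 passed (0.09). The median over all genes was -0.06. Ube2c differed by -0.16 (-0.21 to -0.10), Birc5 by -0.20 (-0.26 to -0.13) and Mcm5 by -0.28 (-0.43 to -0.14). In non-cycling barcodes 925 of 12722 genes were higher (7.27%) and 2208 lower (17.4%), with 12 of 41 G2/M genes lower. The regulators that differed between members were Cdkn2b (52.2 CPM in the small and 3.51 CPM in the large intestine), Cdkn1a (64.4 and 25.1 CPM), E2f2 (1.14) and Cdkn1c (-1.56).

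Of 14 genes of the small intestine region list 12 were higher in small intestinal members, and of 15 of the large intestine region list 11 were lower and 2 higher. Olfm4 had 4695 UMIs in the small and 4 in the large intestinal members, a log2 ratio of 12.32 (10.96 to 14.19). The transcription factor gene Gata4 had 279 UMIs (39.8 CPM) in the small intestine and 1 UMI in the large. Hoxb13, a posterior homeobox gene, had 0 UMIs in small intestinal members and 3399 (111 CPM; lowest 0, median 0, highest 39) in large intestinal members, so it was at least 260.6-fold lower in the small intestine against a floor of 3 UMIs over the group. Car1 had 0 and 23957 UMIs. Other genes named at the small intestinal end were the disaccharidase gene Sis, Onecut2 and the cholesterol transporter gene Npc1l1, and at the large intestinal end Mptx1, Sval1 and Plet1. Most of these genes differed as well in non-cycling barcodes, with Olfm4 at 9.24 (8.54 to 10.05) and Mptx1 at -8.54, beside -10.33 in members.

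Secretory and antigen presentation genes were lower in small intestinal members. Of 8 secretory fate genes 6 were lower (median log2 ratio -2.06), with Atoh1 at 17.1 CPM (lowest 0, median 0, highest 23 UMIs) against 95.6 CPM (0, 0 and 46 UMIs). Of 12 goblet genes 8 were lower and 1, Zg16, higher (1.51). MHC class II genes, which present antigen to T cells, were lower in 6 of 7 (-1.79) and, among epithelial-over-other members, in 7 of 7 (-2.95, beside 12.6% of all genes). H2-Aa, which encodes a class II alpha chain, stood at 112 CPM (lowest 0, median 0, highest 323 UMIs) in the small and 423 CPM (0, 13 and 269 UMIs) in the large intestine. Its log2 ratio was -1.92 (-2.03 to -1.82) by the rule and -3.69 (-3.89 to -3.49) among epithelial-over-other members (B and plasma list over epithelial list in 7 and 39 members). The class II list took a median of 0.0332% of UMIs in small and 0.305% in large intestinal members. H2-Aa had a UMI in 8.20% and 46.3% of thinned members, beside 53.6% and 44.0% of thinned reference barcodes. Of all 423 and 213 reference barcodes, B and plasma genes outnumbered the epithelial list in 313 and 141. Blood endothelial genes did so in 218 and 108, and myeloid genes in 23 and 8. In epithelial-over-other barcodes of the small intestine, 5 of 6 counted class II genes were lower in members than in Lgr5-positive cycling barcodes (-1.27, beside 3.03% of all genes), with H2-Aa at -2.02 (-2.25 to -1.79). The large intestine had 0 of 7.

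**Figure D5:**
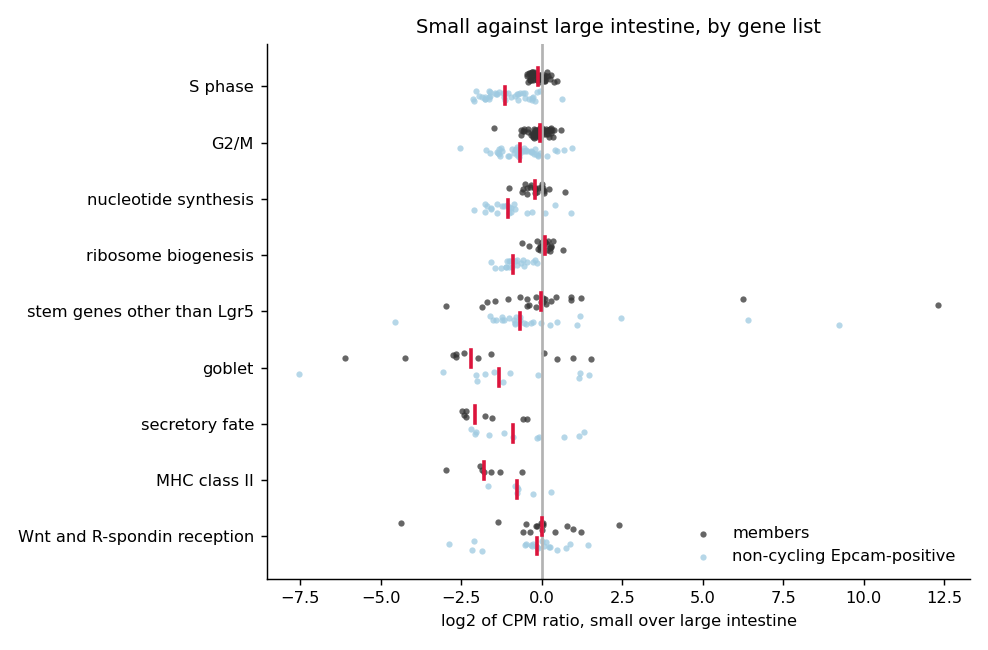
Each point is 1 listed gene with its log2 CPM ratio of small over large intestine on the x axis, dark for members and light blue for non-cycling barcodes; red bars are list medians. S phase, G2/M, nucleotide and ribosome assembly genes of members gather near 0 while the medians of the goblet, secretory fate and MHC class II lists lie below it.

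Signals that the crypt is known to depend on were mixed. Of the Notch genes, Nrarp, a feedback target, had 25.8 CPM in members and 3.66 CPM in non-cycling barcodes of the small intestine, and 24.5 and 7.47 CPM in the large intestine. Hes1, which represses Atoh1, had log2 ratios of 1.44 (1.27 to 1.60) and 0.33 (0.25 to 0.41), and the receptor gene Notch1 was lower than in Lgr5-positive cycling barcodes, at -1.32 (-1.63 to -1.01) and -1.04 (-1.19 to -0.89). In the Wnt and R-spondin list the target Axin2 was at 54.2 CPM in members, 19.3 CPM in non-cycling and 176 CPM in Lgr5-positive cycling barcodes of the small intestine, and at 23.3, 13.9 and 56.8 CPM in the large. Fzd5, a Wnt receptor gene, stood at 98.1 CPM in members of the small and at 18.8 CPM in those of the large intestine, and Fzd3 had 0.143 CPM (1 UMI) and 8.89 CPM. For the reelin pathway, whose ligand lymphatic endothelium makes, the adaptor gene Dab1 had 27.2 CPM (191 UMIs) in the small and 0.459 CPM (14 UMIs) in the large intestine. The receptor gene Lrp8 had 1.85 CPM (13 UMIs) and 10.9 CPM (331 UMIs). The difference in Dab1 was as large in non-cycling barcodes, at 5.69 (5.20 to 6.23) beside 5.89 (5.11 to 6.79).

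A few cycling barcodes lacked Epcam, 6 in the small and 5 in the large intestine, too few for more than a description. In 6 of 6 and 5 of 5 the other-cell lists outnumbered the epithelial list, and Krt8 was at 115 and 74.2 CPM beside 2735 and 1769 CPM in members. Ube2c was at 404 CPM (28 UMIs) and 148 CPM (14 UMIs), and the G2/M list took a median of 1.35% and 0.712% of their UMIs.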

How the data were processed

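Single-cell libraries of small and large intestine were analysed, 1 per tissue; the other 6 libraries were not used here. The authors deposited filtered matrices of raw UMI counts for 32287 features, made with Cell Ranger 6.0.1 and mm10 per the submitters' processing notes; the annotation release is not given in the sources used here. The members and the 31 gene lists (451 of 452 genes matched) were chosen with earlier results of these data known.

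UMIs were summed per group and divided by the group's total (CPM). Log2 ratios carry exact 95% intervals from the Poisson counts, shares exact Clopper-Pearson intervals, and a count under 3 in either group was set to 3 for the ratio. Genes were named if among the 10 highest or lowest ratios, with at least 100 UMIs in at least 10 barcodes and no barcode over 20%. Barcodes were thinned to 2000 UMIs, leaving out shallower ones, where shares were compared. Doublets were kept, with a Scrublet alternative. The splits by Lgr5 UMIs, goblet, Paneth and phase load, and the naming within epithelial-over-other barcodes, were chosen after seeing the data. The ratio computation was tested on simulated Poisson counts. These held no variation between barcodes, so the test cannot show how the intervals hold for these data. The software was Python 3.11.15, numpy 2.4.6, scipy 1.17.1, pandas 2.3.3, scanpy 1.11.5 and matplotlib 3.10.9. A gene that the naming rule selects is not reported here.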

Additional observations from a re-analysis of the deposited data

Results flagged for a closer look

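Barcodes above the mitochondrial limit that met every other condition lay outside all comparisons, 231 in the small and 45 in the large intestine, beside 183 and 765 members. They had a median of 45.9% and 33.3% mitochondrial UMIs, 8784 and 9133 UMIs and 2270 and 2763 genes, and a median of 18 and 15 Mki67 plus Top2a UMIs. Per 1e6 UMIs without mitochondrial genes, Ube2c was at 246 and 341 in them, 576 and 631 in members, and 20.7 and 28.0 in non-cycling barcodes over the same limit.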

How the results depend on the processing

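Of 176 comparisons of a share or a count of genes with an alternative, 139 stayed within the counting interval or within 1.5 times, and 37 moved; the cause was not tested. The members' share of Epcam-positive barcodes became 15.5% in the large intestine at a mitochondrial limit of 10%, and 11.4% (320 members) in the small intestine at 50%. It became 16.0% in the large intestine with at least 1000 genes, 12.1% and 17.4% with 2000 genes, 12.7% and 18.3% with 5 cycling UMIs, 7.48% and 10.9% with 20, 11.5% and 16.6% with 3 Epcam UMIs, and 11.3% and 15.9% without barcodes with more other-cell than epithelial UMIs. Against non-cycling barcodes of the large intestine, genes lower in members numbered 1144 with 3 Epcam UMIs, 1030 without those barcodes and 1012 with at least 200 UMIs per gene. That minimum gave 1078 higher and 863 lower in the small intestine. Against Lgr5-positive cycling barcodes, it gave 175 higher and 79 lower in the small and 181 and 47 in the large intestine, and a minimum of 20 gave 618 and 458, and 634 and 215. Leaving out barcodes with more other-cell UMIs gave 258 higher in the large intestine. Thinning, with the minimum of 50 UMIs taken before it, gave 607 and 764 in the small intestine and 501 lower in the large. Between tissues 260 were higher and 769 lower with at least 200 UMIs, and 949 and 718 after thinning. The GFP-PLUS share of large intestinal members was 16.7% unthinned, and G2/M UMIs exceeded S phase UMIs in 77.8% of them with 5 cycling UMIs.

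Single genes that changed sign against non-cycling barcodes were, in the large intestine, Car1 (0.24) at the 10% mitochondrial limit and Igfbp4 (0.12 with 3 Epcam UMIs, 1.09 without barcodes with more other-cell UMIs), and in the small intestine Ung (-0.17 after thinning). Against Lgr5-positive cycling barcodes Pou2af1 became -1.51 in the small and -1.69 in the large intestine without those barcodes. Between tissues Gcg became -0.64 at the 10% limit and Chgb -1.26 with 5 cycling UMIs. No paired analysis was possible because each tissue has 1 library. That also limits every value here: intervals cover counting error only, and no difference between mice was measured.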
